A study of Oryctolagus cuniculus with 4 samples.

Results

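The antioxidant and glutathione genes of rabbit skin were examined in hypertrophic scar (HS) with and without microneedle treatment. Members were the rows of the deposited table whose symbol named a superoxide dismutase, catalase, a glutathione peroxidase, a peroxiredoxin or sulfiredoxin, a protein with thioredoxin in its name, a glutaredoxin, a methionine sulfoxide reductase, a glutathione transferase, an enzyme of glutathione synthesis or reduction, heme oxygenase, quinone reductase, KEAP1 or an NFE2L factor. This gave 45 of 13913 genes. Of these, 41 had a mean of at least 1 unit and were tested, 1 unit being 1 part in 1000000 of a library's total. The symbols of a further 24 rabbit genes in RefSeq fitted the rule and were not analysed here, among them SOD2, GPX3, GPX4, PRDX2, PRDX3, PRDX5, TXN, GSTP1, HMOX2, KEAP1 and all glutaredoxins.

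The libraries were 10x Genomics single-cell libraries of ventral ear epidermis and dermis, 2 per group, combined by the depositors into 1 value per gene and library. Both groups were female wild-type rabbits, 10 to 12 weeks old at purchase, with scars grown from wounds on the ventral ear that removed epidermis, dermis and perichondrium. HS scars received nothing. Scars of the drug-loaded MNs group received, weekly for 3 weeks, a patch of separating microneedles (MNs), whose gelatin-based tips stay in the scar and release a 5-fluorouracil acetic acid prodrug through a peptide that reactive oxygen species cut, and tissue was taken 1 week after the last patch. No library with drug-free needles was analysed here, so needles and drug cannot be told apart. Each library came from 1 scar tissue, and no label ties a library to an animal, so p-values measure only the spread between these libraries.

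Cells make superoxide and hydrogen peroxide in respiration, in oxidative protein folding and through NADPH oxidases. Superoxide dismutases turn superoxide into hydrogen peroxide, which catalase, glutathione peroxidases and peroxiredoxins reduce. The thioredoxin and glutathione systems pass electrons from NADPH to these peroxidases, and glutathione transferases couple glutathione to reactive compounds. NRF2, the product of NFE2L2, is held back by KEAP1 and turns on many of these genes when cells are oxidised. In skin, keratinocytes, fibroblasts and macrophages differ in which of these enzymes they make, and SOD3 works outside the cell, bound to the matrix.

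Summed over the members analysed, the antioxidant genes took a similar share of the RNA in both groups. The 24 genes named above as not analysed here are not in this sum. The 45 members summed to 7334 and 5719 units in the HS libraries and to 6981 and 6097 units in the drug-loaded MNs libraries, with means of 6527 ± 1143 and 6539 ± 625 units (SD, n = 2 each), or 0.653% and 0.654% of the total. The drug-loaded MNs libraries lay between the HS libraries. The sum weighs each gene by its value, and whether values are per gene length is not known. Without the 5 members of highest value (SOD1, PRDX1, GPX1, MGST3 and TXNIP) the sums were 2612 and 2220 units in HS and 2736 and 2583 units in drug-loaded MNs, and the groups overlapped again. The sign of the difference in the full sum was set by single libraries, being 0.19 on the log2 scale without HS replicate 1 and -0.17 without HS replicate 2.

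In limma, 0 of the 41 tested members passed an adjusted p of 0.05, where 0.0428% of all 9348 tested genes did, and the lowest adjusted p among members was 0.257. At an unadjusted p under 0.05, 4 members (9.76%) were higher in drug-loaded MNs and 0 were lower, beside 7.26% of all genes higher and 1.39% lower. Among all genes at that p, 83.9% were higher, a share of 64.1% with median ratio scaling and of 59.2% after quantile normalization. The count of higher members was 2 without drug-loaded MNs replicate 1. The groups did not overlap in 8 members (19.5%) that were higher and 5 (12.2%) that were lower, beside 26.6% and 11.2% of all genes, or in 13 members (31.7%) beside 37.8% in either direction. Median ratio scaling turned these counts to 5 and 9. The median log2 fold change of the members was 0.051, beside 0.12 over all tested genes, and 23 members (56.1%) were above 0 and 18 below, beside 64.6% of all genes above 0. Under median ratio scaling, which moves the median of all genes to -0.010, the member median was -0.035. Without HS replicate 2 it was -0.011. Relative to all tested genes the members' counts and median were thus close to the background.

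**Figure D1:**
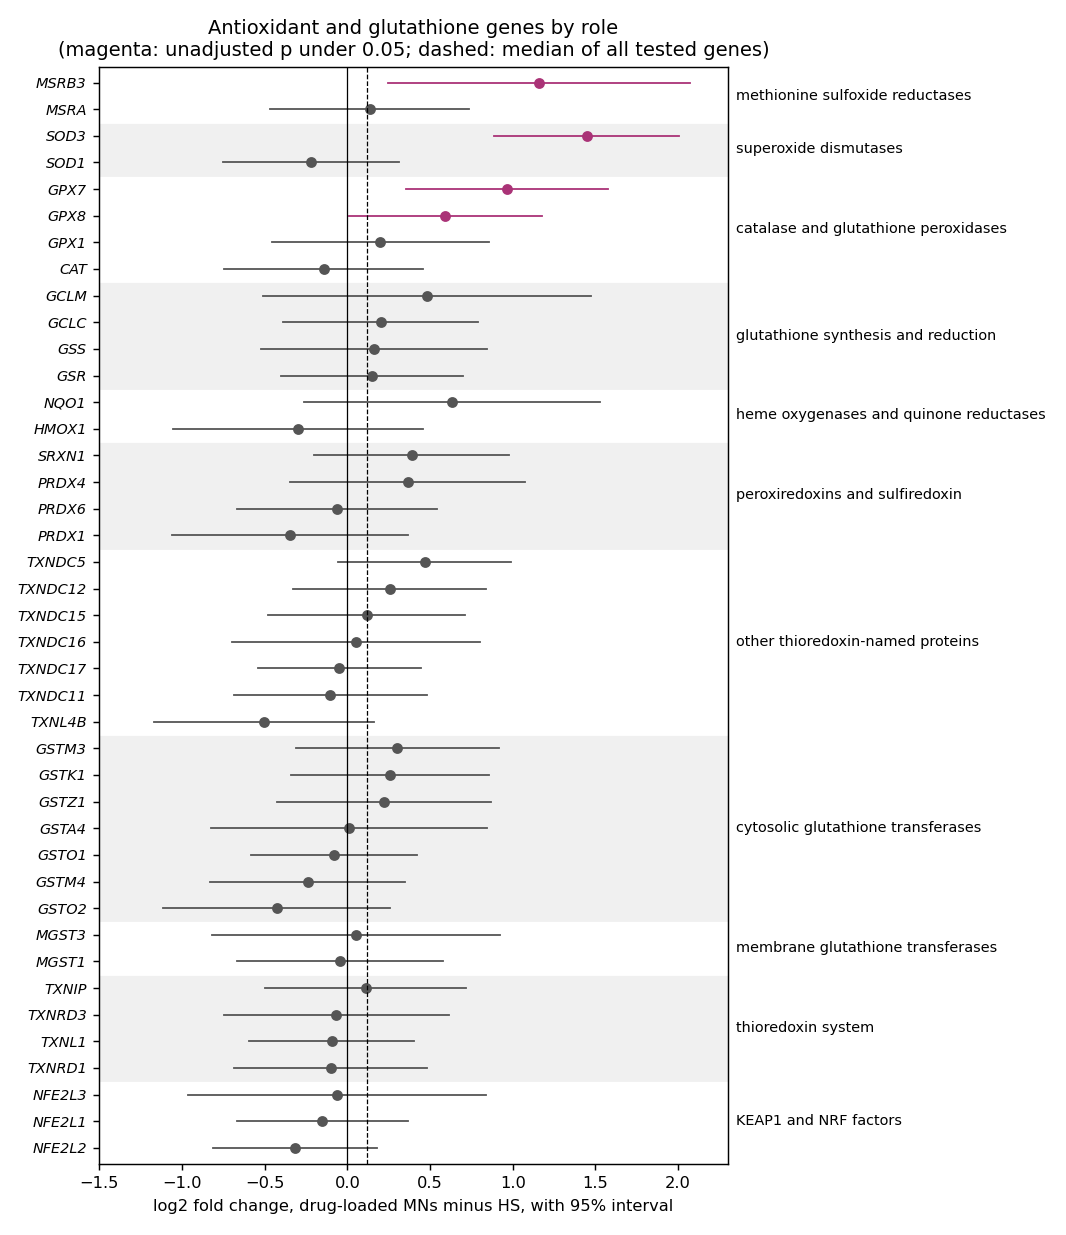
Log2 fold change (drug-loaded MNs minus HS, x axis) of each of the 41 tested antioxidant and glutathione genes, grouped by role, with its 95% interval from limma. The 4 magenta genes, SOD3, MSRB3, GPX7 and GPX8, had an unadjusted p under 0.05, and the intervals of all other tested members contain 0. The dashed line marks the median of all tested genes, 0.12.

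The 4 members at an unadjusted p under 0.05 were SOD3, GPX7, MSRB3 and GPX8. SOD3 (ENSOCUG00000007460), the extracellular superoxide dismutase, stood at 25.1 and 21.3 units in HS and at 70.8 and 59.3 units in drug-loaded MNs. Both treated libraries were more than 2 times as high as either untreated one. Means were 23.2 ± 2.67 and 65.1 ± 8.16 units (SD, n = 2 each). The log2 fold change, fitted on log2 values, was 1.45 with a 95% interval of 0.89 to 2.01 (SE 0.24, limma p 0.000413, adjusted p 0.257). The difference was far larger than the spread within either group and lay above the log2 fold change of 99.4% of tested genes, but did not pass the adjustment over all genes. With 1 library left out it ranged from 1.32 to 1.57, and over the other alternatives from 1.31 to 1.48.

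GPX7 (ENSOCUG00000007319) and GPX8 (ENSOCUG00000015267) encode glutathione peroxidases of the endoplasmic reticulum, where hydrogen peroxide from oxidative protein folding is used up. GPX7 stood at 98.8 and 64.6 units in HS and at 163 and 151 units in drug-loaded MNs. The treated libraries were alike and above both untreated ones, which were farther apart. The log2 fold change was 0.97 (SE 0.26, 95% interval 0.36 to 1.58, limma p 0.00692, adjusted p 0.345), and it ranged from 0.66 to 1.27 with 1 library left out. GPX8 stood at 79.4 and 57.9 units in HS and at 113 and 93.8 units in drug-loaded MNs. The groups did not overlap, but HS replicate 1 came near drug-loaded MNs replicate 2. This gave a log2 fold change of 0.59 (SE 0.25, 95% interval 0.0096 to 1.18, limma p 0.0472, adjusted p 0.565), which ranged from 0.37 to 0.82 with 1 library left out.

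MSRB3 (ENSOCUG00000000887), which reduces oxidised methionine in the endoplasmic reticulum and mitochondria, stood at 17.6 and 40.3 units in HS and at 71.8 and 51.6 units in drug-loaded MNs. All treated values exceeded the untreated ones, although HS replicate 2 lay closer to drug-loaded MNs replicate 2 than to the other HS library. The log2 fold change, fitted on log2 values, was 1.16 (SE 0.39, 95% interval 0.25 to 2.07, limma p 0.0195, adjusted p 0.433). It was 0.58 without HS replicate 1 and 1.73 without HS replicate 2, so HS replicate 1 decided much of its size. MSRA, the other methionine sulfoxide reductase tested, stood at 19.6 and 17.1 units in HS and at 22.4 and 18.2 units in drug-loaded MNs, and its groups overlapped.

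**Figure D2:**
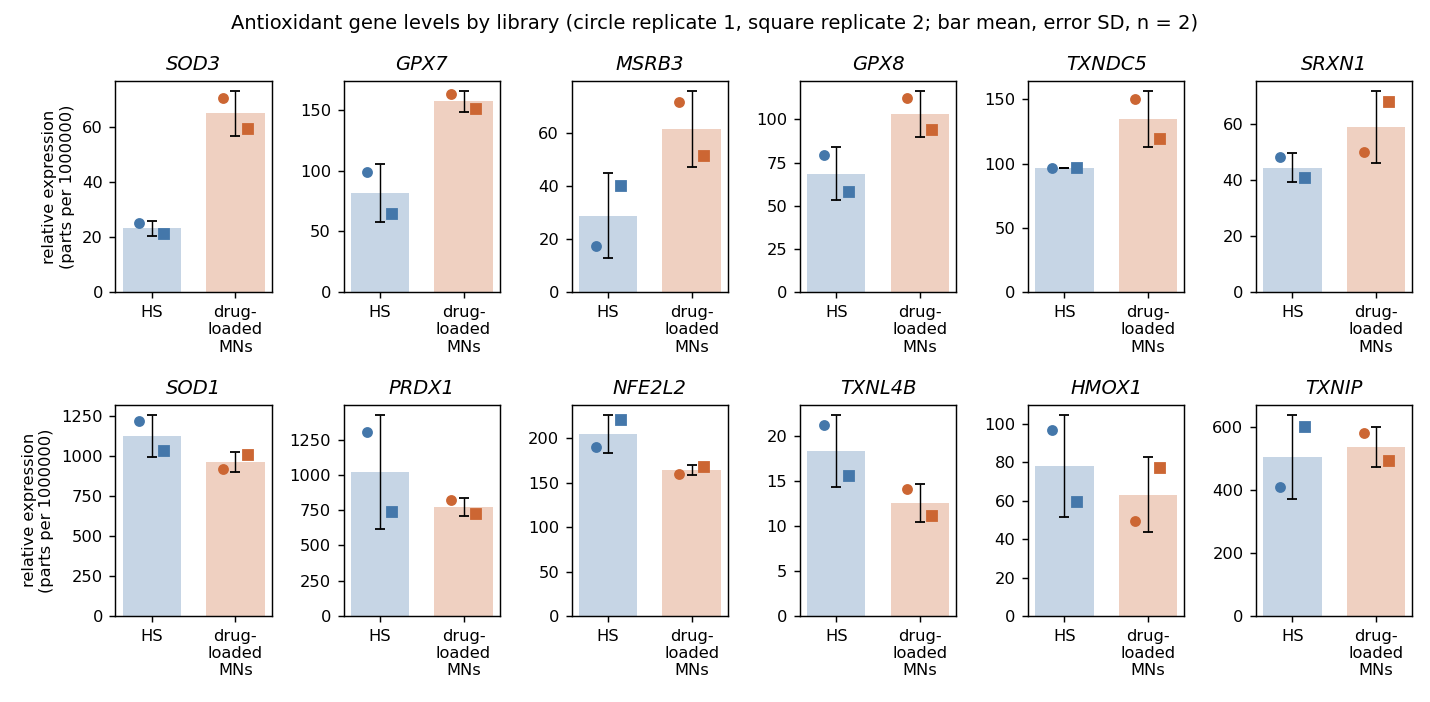
Relative expression (parts per 1000000 of the library total, y axis from 0) of 12 antioxidant genes in each library, with circles for replicate 1, squares for replicate 2, bars for the group mean and error bars for the SD (n = 2). In the top row the treated libraries lie above the untreated ones, widest in SOD3 at 59.3 and 70.8 against 21.3 and 25.1. In the bottom row SOD1, NFE2L2 and TXNL4B are lower without overlap, while PRDX1, HMOX1 and TXNIP overlap.

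SOD1, the cytosolic dismutase, did not follow SOD3. It stood at 1217 and 1029 units in HS and at 917 and 1005 units in drug-loaded MNs. The treated libraries were the lower ones without overlap, but HS replicate 2 and drug-loaded MNs replicate 2 differed by little. The 95% interval of the log2 fold change of -0.22 ran from -0.75 to 0.31 (limma adjusted p 0.861).

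Among the enzymes that remove peroxide in the cytosol and peroxisome, none differed beyond the spread between libraries. Catalase (CAT), the peroxisomal enzyme, stood at 56.8 and 42.3 units in HS and at 49.5 and 39.6 units in drug-loaded MNs. GPX1, the main cytosolic glutathione peroxidase, stood at 1015 and 649.8 units in HS and at 1036 and 841 units in drug-loaded MNs. In both genes replicate 1 was the higher library of its group, and the groups overlapped. The log2 fold change was -0.14 for CAT (95% interval -0.75 to 0.46) and 0.20 for GPX1 (95% interval -0.46 to 0.86). GPX6 was listed at 0 in all 4 libraries. The median log2 fold change over the 4 tested genes of catalase and the glutathione peroxidases was 0.40, and it lay between the endoplasmic reticulum enzymes and the other 2.

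Peroxiredoxins reduce peroxide with a thiol and are recycled by thioredoxin, and sulfiredoxin rescues them after overoxidation. PRDX1, a cytosolic peroxiredoxin, stood at 1307 and 735 units in HS and at 819 and 725 units in drug-loaded MNs. HS replicate 1 stood apart and the other 3 libraries were alike. On the log2 scale the groups differed by -0.35 (95% interval -1.06 to 0.37), which became 0.068 without HS replicate 1. PRDX6, which also acts on oxidised phospholipids, stood at 279 and 192 units in HS and at 246 and 200.5 units in drug-loaded MNs, with a log2 fold change of -0.061. PRDX4, the peroxiredoxin of the endoplasmic reticulum, stood at 163 and 98.4 units in HS and at 192 and 139 units in drug-loaded MNs, with a log2 fold change of 0.36 and overlapping groups. SRXN1 (sulfiredoxin) stood at 48.3 and 40.8 units in HS and at 50.1 and 68.1 units in drug-loaded MNs. Its groups did not overlap, by a narrow gap, and the 95% interval of its log2 fold change, 0.39, ran from -0.20 to 0.98.

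In the thioredoxin system the median over the 4 tested genes was -0.080 (log2), with 1 above 0 and 3 below, 0 and 4 under median ratio scaling, and the groups overlapped in each. TXNRD1, the cytosolic thioredoxin reductase, stood at 100.1 and 118 units in HS and at 85.4 and 119 units in drug-loaded MNs. TXNIP, which binds and inhibits thioredoxin, stood at 410 and 599.8 units in HS and at 582 and 492 units in drug-loaded MNs. Both genes overlapped between groups, and 95% intervals of the log2 fold change were -0.68 to 0.48 and -0.497 to 0.72. TXNRD3 and TXNL1 had log2 fold changes of -0.067 and -0.094.

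The other 9 genes with thioredoxin in their name encode proteins with that fold and various tasks. TXNDC5, a disulfide isomerase of the endoplasmic reticulum, stood at 96.4 and 96.7 units in HS and at 149.97 and 119 units in drug-loaded MNs. The HS libraries were nearly equal and below both treated ones, and the log2 fold change was 0.47 (SE 0.22, 95% interval -0.056 to 0.99, limma adjusted p 0.649). TXNL4B, whose relatives belong to the spliceosome, stood at 21.2 and 15.5 units in HS and at 14.1 and 11.1 units in drug-loaded MNs. It had the lowest log2 fold change of the members, -0.50 (95% interval -1.17 to 0.16, limma adjusted p 0.722), and its groups did not overlap. TXNDC11, TXNDC12, TXNDC15, TXNDC16 and TXNDC17 had log2 fold changes from -0.10 to 0.26 with overlapping groups. TXNDC2 and TXNDC8 had a mean below 1 unit and were not tested.

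The enzymes that make and reduce glutathione all had log2 fold changes above 0, also under median ratio scaling (0.011 to 0.35) and quantile normalization (0.025 to 0.31), but not with each library left out, and none differed beyond the spread between libraries. GCLC, the catalytic subunit of the rate-limiting ligase, stood at 14.0 and 16.2 units in HS and at 17.1 and 17.8 units in drug-loaded MNs. GCLM, its modifier subunit, stood at 6.81 and 17.1 units in HS and at 12.9 and 18.8 units in drug-loaded MNs. GSR, glutathione reductase, stood at 27.4 and 30.1 units in HS and at 30.2 and 33.9 units in drug-loaded MNs. In GCLC and GSR the groups did not overlap, by a narrow gap each, while in GCLM the value of HS replicate 1 lay far below the other 3. GSS, glutathione synthetase, stood at 31.6 and 23.3 units in HS and at 37.1 and 25.1 units in drug-loaded MNs and overlapped. The log2 fold changes were 0.20 for GCLC, 0.48 for GCLM, 0.16 for GSS and 0.15 for GSR, with a median of 0.18, and limma adjusted p values ran from 0.836 to 0.922. The median over all tested genes, beside these, was 0.12. Without HS replicate 1, GCLM was at -0.13, and GSS was below 0 in 2 of the 4 fits with 1 library left out, at -0.11 in the lowest.

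Glutathione transferases join glutathione to drugs and oxidised lipids. Of the 7 cytosolic ones, 4 were above 0 and 3 below (3 and 4 in either other scaling), and log2 fold changes ran from -0.43 to 0.30. GSTO2, which reduces dehydroascorbate, stood at 1.87 and 1.75 units in HS and at 1.14 and 1.04 units in drug-loaded MNs, or -0.43 on the log2 scale (95% interval -1.12 to 0.26). The libraries of each group were close together at this low level. GSTM4 was also lower without overlap, with a log2 fold change of -0.24. GSTM3 and GSTM4 belong to a family of similar genes, between which reads may be divided, so their values are uncertain. GSTA4, GSTK1, GSTO1 and GSTZ1 overlapped between groups. The membrane transferases MGST1 and MGST3 differed more between replicates than between groups. MGST1 stood at 65.3 and 54.5 units in HS and at 70.0 and 47.6 units in drug-loaded MNs. MGST3 stood at 774 and 485 units in HS and at 891 and 452 units in drug-loaded MNs, so that replicate 1 was high and replicate 2 low in both groups. MGST2 had a mean below 1 unit and was not tested.

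The gene of NRF2 and those it is best known for inducing had log2 fold changes on both sides of 0, and every 95% interval contained 0. NFE2L2, which encodes NRF2, stood at 189.9 and 220 units in HS and at 160 and 168 units in drug-loaded MNs. Both treated libraries were below both untreated ones, and the log2 fold change was -0.32 (SE 0.21, 95% interval -0.81 to 0.18, limma adjusted p 0.767). NFE2L1, a related factor that drives proteasome genes, and NFE2L3 had log2 fold changes of -0.15 and -0.065, so that all 3 tested factors were below 0, also under each scaling, with a median of -0.15. That median was -0.29 with median ratio scaling, -0.42 without HS replicate 1 and -0.016 without HS replicate 2. NFE2L3 was above 0 with some libraries left out, up to 0.42. HMOX1, the heme oxygenase that NRF2 induces, stood at 97.0 and 59.5 units in HS and at 49.3 and 77.1 units in drug-loaded MNs. NQO1, a quinone reductase and another NRF2 target, stood at 5.50 and 11.8 units in HS and at 15.6 and 11.04 units in drug-loaded MNs. Both overlapped between groups, and the log2 fold changes were of opposite sign, -0.30 (95% interval -1.05 to 0.46) for HMOX1 and 0.63 (95% interval -0.26 to 1.52) for NQO1. Together with GCLC, GCLM, SRXN1, GSR and TXNRD1, given above, these well known targets ran from -0.30 to 0.63.

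**Figure D3:**
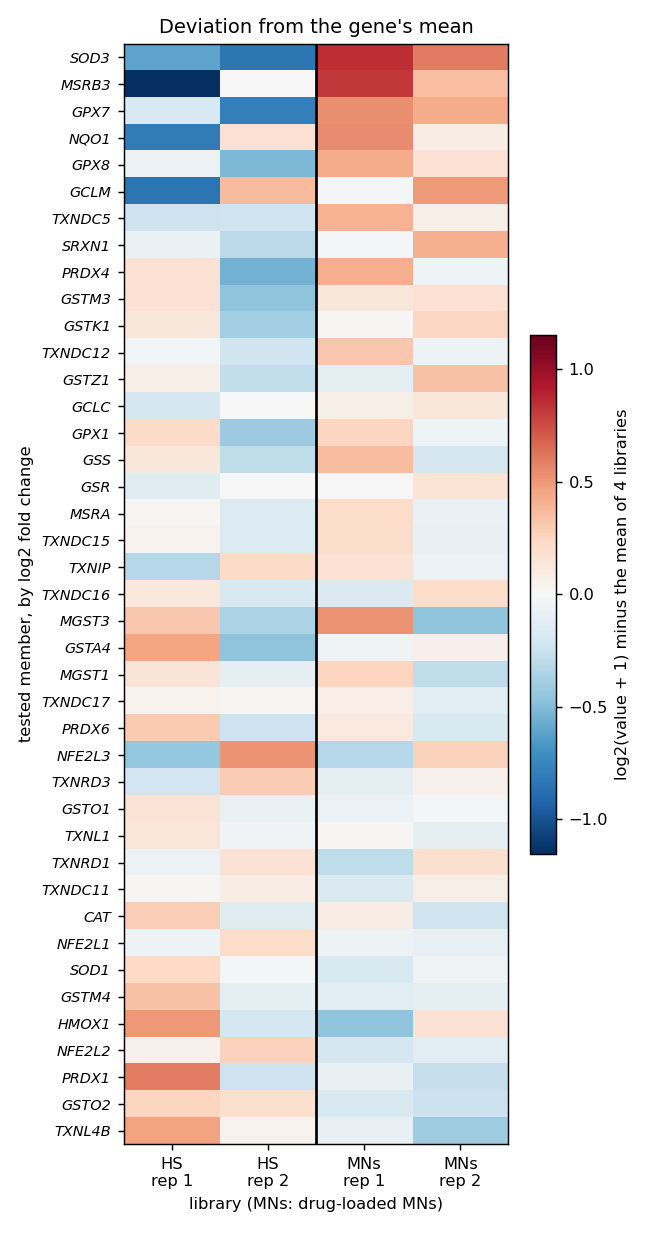
Deviation of each tested antioxidant gene from its own mean over the 4 libraries, on the log2(value + 1) scale (colour), with genes ordered by log2 fold change (y axis) and libraries on the x axis. Near the top, SOD3, GPX7, GPX8 and TXNDC5 lie below their mean in both HS libraries and above it in both drug-loaded MNs libraries, while in most of the middle rows the replicates of a group differ.

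For the members, the median difference between libraries of one group was larger than that between the groups. Replicates were apart by a median of 0.42 in HS and 0.29 in drug-loaded MNs (absolute log2 difference). The median absolute log2 fold change between groups was 0.20. Over all tested genes these medians were 0.33, 0.23 and 0.23. Means of 2 libraries vary less than single libraries, so the measures are not alike. HS replicate 1 was the library farthest from the gene's median in 14 of 41 members (34.1%), beside 39.4% of all tested genes. PRDX1, HMOX1 and GSTA4 were highest in it, and MSRB3, NQO1 and GCLM lowest.

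Markers of several cell types were higher in drug-loaded MNs together with SOD3, GPX7, MSRB3 and GPX8. Of the fibroblast markers 6 of 7 listed were tested (PDGFRA was not analysed here), and all 6 were higher without overlap, with log2 fold changes from 0.58 to 1.46 and a median of 1.12. Their sum ran from 22526 to 22996 units in HS and from 44682 to 48616 units in drug-loaded MNs. The 7 tested macrophage markers of 8 listed were also all higher without overlap, from 0.82 to 1.79 with a median of 1.22. Their sum ran from 119.5 to 130 units in HS and from 283 to 286 units in drug-loaded MNs. Over all tested genes, 26.6% were higher without overlap. Basal keratinocyte markers had a median of -0.18 (5 tested, none without overlap) and suprabasal ones of -0.059 (3 tested, none without overlap, and 0 under quantile normalization). Medians were also above 0 for mural cells (4 of 4 tested above 0, median 0.55) and Schwann cells (5 of 5, 0.73). The same held for mast cells (2 of 3, 0.31) and for sebaceous cells and adipocytes (3 of 4, 0.40). It also held for endothelium (3 of 6, 0.18) and cycling cells (4 of 4, 0.59). The 1 T cell gene tested stood at 1.08. Higher without overlap were 2 mural, 1 Schwann, 1 mast, 3 sebaceous and adipocyte and 0 cycling genes, and the T cell gene. In endothelium 2 were higher and 2 lower (VWF and TIE1) without overlap, and its median was 0.0014 under quantile normalization. In the Schwann list S100B stood at 410 and 17.0 units in the HS libraries. The chondrocyte and erythroid lists, with 1 gene tested each, stood at -0.28 and -0.80. Immediate early genes, which dissociation of tissue induces, had a median of -0.18, with 5 of 5 below 0 and DUSP1 (-0.50) lower without overlap, beside NFE2L2 at -0.32. Its part in the value of NFE2L2 was not tested. None of these lists had a marker at 0 in all libraries, and none of their genes passed an adjusted p of 0.05. MGST1 (-0.046), in the list of sebaceous cells and adipocytes, is also one of the antioxidant members. The log2 fold changes of SOD3 (1.45), MSRB3 (1.16), GPX7 (0.97) and GPX8 (0.59) all lay within the range of the fibroblast markers, and that of TXNDC5 (0.47) lay below it. Ranges of other lists held some of these values too. The macrophage range held SOD3, MSRB3 and GPX7, and the Schwann cell range (0.53 to 1.05) held GPX7 and GPX8. The part of these markers in the results on SOD3, GPX7, GPX8 and MSRB3 was not tested, and in values per library more cells of a type and more RNA per cell cannot be told apart. Mitochondrially encoded genes took 2.77% of the total in HS and 4.47% in drug-loaded MNs. With them left out of the total, SOD3 was at 1.47 and the members' median at 0.076.

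**Figure D4:**
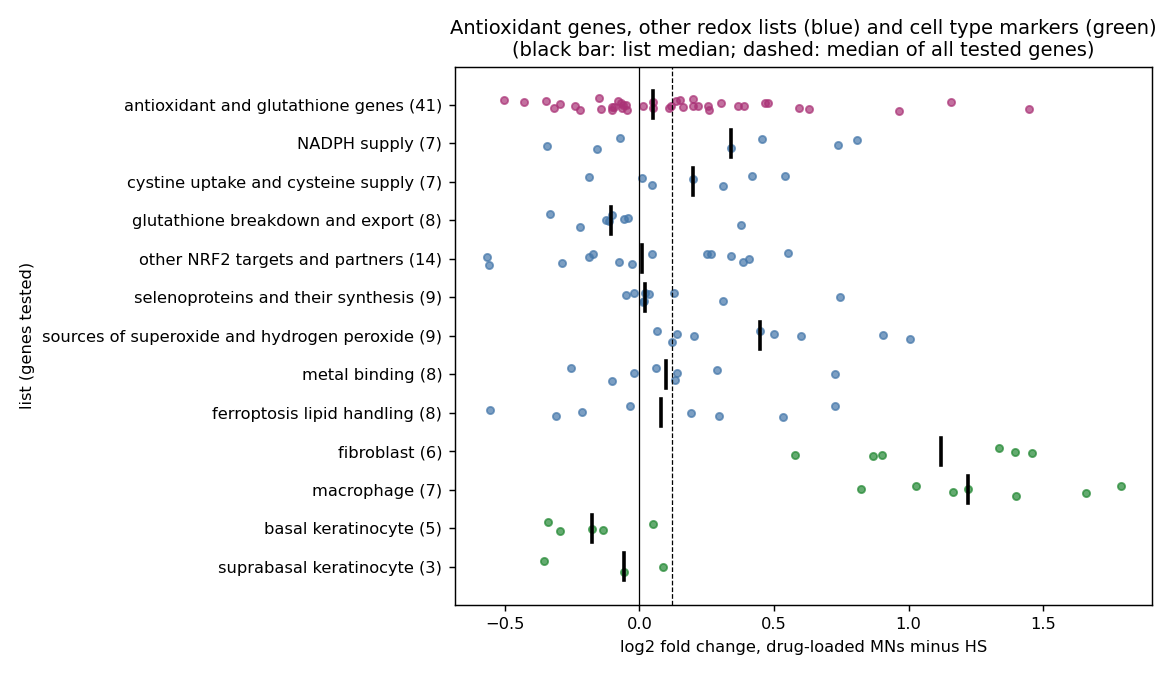
Log2 fold change (drug-loaded MNs minus HS, x axis) of each tested gene of the antioxidant members (magenta), of 8 other redox lists (blue) and of 4 cell type marker lists (green), with the list median as a black bar and the median of all tested genes, 0.12, dashed. The antioxidant median lies at 0.051, and the fibroblast and macrophage medians at 1.12 and 1.22.

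Other genes of redox metabolism were counted in lists that did not depend on the members, and 0 genes of any list passed an adjusted p of 0.05 in limma. Genes that make superoxide or hydrogen peroxide had the highest median, 0.45, with all 9 tested genes above 0 (7 with median ratio scaling, 5 after quantile normalization, with medians of 0.31 and 0.25), 2 at an unadjusted p under 0.05 and 6 higher without overlap. Over all tested genes 64.6% were above 0, 7.26% were higher at that p and 26.6% were higher without overlap. LOX, the collagen crosslinking oxidase, stood at 206 and 273 units in HS and at 443 and 512 units in drug-loaded MNs, a log2 difference of 1.004 (limma, adjusted p 0.314). CYBB, the catalytic subunit of the phagocyte NADPH oxidase, stood at 2.14 and 3.61 units in HS and at 5.92 and 6.31 units in drug-loaded MNs, a log2 difference of 0.90 (limma, adjusted p 0.447). LOX is made by fibroblasts and CYBB by macrophages, whose markers are given above. The part of these cells in the LOX and CYBB values was not tested. In values per library more cells of a type and more RNA per cell cannot be told apart.

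Genes that supply NADPH had a median of 0.34 over 7 tested genes (0.21 with median ratio scaling, 0.15 after quantile normalization). Of these, 2 were higher and 3 lower without overlap, beside 26.6% and 11.2% of all tested genes. The 1 gene at an unadjusted p under 0.05 was NNT, the mitochondrial transhydrogenase, at 0.74. The 3 lower ones belong to the pentose phosphate pathway, PGD at -0.073, TKT at -0.16 and H6PD, its enzyme of the endoplasmic reticulum, at -0.34 (limma adjusted p from 0.821 to 0.956). Cystine uptake and cysteine supply genes had a median of 0.20 (0.0029 under quantile normalization) over 7 tested, 0 of them at an unadjusted p under 0.05. SLC7A11, the cystine transporter that feeds glutathione synthesis, stood at 2.82 and 5.52 units in HS and at 5.498 and 5.85 units in drug-loaded MNs. Genes of glutathione breakdown and export had a median of -0.11 over 8 tested, 0 of them at an unadjusted p under 0.05. Under each scaling 7 of 8 were below 0, where 64.6% of all tested genes were above 0 in the main scaling. Without overlap 1 gene was higher and 1 lower. This list was not examined with a library left out.

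Further NRF2 targets and partners had a median of 0.011, with 7 of 14 above 0 (6 under median ratio scaling). The 1 gene at an unadjusted p under 0.05 was MAFF, a small MAF partner of NRF2, at 42.5 and 49.9 units in HS and at 29.5 and 32.1 units in drug-loaded MNs, a log2 difference of -0.57 (limma, adjusted p 0.549). Selenoproteins and the genes that make them had a median of 0.022 over 9 tested, -0.106 with median ratio scaling and -0.040 after quantile normalization. SELENOP, the secreted selenium carrier, stood at 421 and 472 units in HS and at 764 and 733 units in drug-loaded MNs, a log2 difference of 0.75 (limma, adjusted p 0.366), and was the 1 gene of this list at an unadjusted p under 0.05. The libraries of each group were close together for it.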

How the data were processed

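Libraries of rabbit ear HS tissue (2 HS, 2 drug-loaded MNs) were made with the 10x Genomics 3' v2 method. The authors processed reads with Cell Ranger 2.1.1, took the UMI counts on in Seurat, left out some cells, capped the mitochondrial share and describe a removal of batch differences between samples. Their notes name the mouse build mm10, although identifiers are rabbit Ensembl genes. The deposited signal values are named for FPKM, but each column sums to 10000 over 13913 genes. The cell cutoffs, how cells were combined, whether gene length was corrected for, whether the deposited values had passed through the batch step and how doublets were treated are not given in the sources used here. Levels are therefore not compared between genes, beyond sums and the choice of the 5 members with the highest mean.

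Of 884 to 1082 low values per library (up to 20 steps of the smallest value), 18.5% to 21.7% were whole multiples to within 0.1 of a step. Reads were therefore not recoverable, depth is unknown, and no count test or counting interval was computed.

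The test planned for FPKM was kept. Values were rescaled to 1000000 per library, 9348 genes whose mean reached 1 unit were tested, and limma 3.58.1 (R 4.3.3, lmFit, then eBayes with trend) was run on log2(value + 1), without covariates, two-sided, with Benjamini-Hochberg adjustment at 0.05. Fold changes on this scale understate those of low genes. Intervals are 95% and unadjusted. An exact permutation test of 2 against 2 cannot go below 0.333, so none was used. On simulated data for this comparison there were 9348 genes, 50 changed per size. The fit found 22% of genes given a log2 change of 1, 98% of those given 2 and 100% of those given 3. There were 8 false calls in 168. Changes were put only into genes well above the minimum mean, and most were larger than 1. The noise was independent and drawn from the fitted spread. These shares are therefore not the power for the members here.

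Values in every library were given for members at an unadjusted p under 0.05, the 3 highest and 3 lowest log2 fold changes without overlap, the 5 members with the highest mean and a list of core defence genes. PRDX4, TXNDC5, MSRA and genes of other lists were added after their values were seen. Members, lists and tests were chosen with earlier results of these data known. Of the 45 members, 42 matched 1 gene in RefSeq (mOryCun1.1), used for symbols only. Alternatives were other scalings, pseudocounts, filters, eBayes settings, the replicate number as a block and leaving out each library.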

Additional observations from a re-analysis of the deposited data

How the results depend on the processing

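Of all tested genes 4 passed the threshold, and 0 passed with a pseudocount of 5, without filter, and under either other scaling (median ratio, quantile). With eBayes without trend 1 passed, and 0 to 38 passed with 1 library left out (0 when HS replicate 1 was dropped, 35 and 38 when drug-loaded MNs replicate 1 or 2 was), where the lone library of a group borrows the spread of the other group. The count of members past it stayed 0 in all of these. With the replicate number as a block, 241 genes and 3 members passed, SOD3 (adjusted p 0.000844), GPX7 (0.0224) and MSRB3 (0.0195), and that fit has 1 residual degree of freedom. The labels tie same-numbered libraries by number only. The correlation of their deviations was 0.222 across genes, and 2 pairs can neither establish nor exclude a pairing. Over all alternatives adjusted p ranged from 0.000844 to 0.484 for SOD3, from 0.0224 to 0.823 for GPX7 and from 0.0195 to 0.979 for MSRB3.

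Members higher at an unadjusted p under 0.05 (4) ranged from 2 to 5 with 1 library left out. Members lower (0) were 1 under quantile normalization, 1 without filter, and 0 to 1 with 1 library left out. Members higher without overlap (8) were 5 under either scaling, and members lower without overlap (5) were 9 under median ratio scaling. With 1 library left out these were 13 to 21 and 8 to 12, as fewer libraries overlap less often by construction. The member median (0.051) was -0.035 with median ratios and -0.031 with quantiles, and ranged from -0.011 to 0.103 with 1 library left out. The log2 difference of the summed level (0.011) was -0.134 under median ratio scaling and ranged from -0.169 to 0.19.

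Of 41 tested members, 18 kept their direction in every alternative and 23 did not, 17 of these only when a library was left out. Under median ratio scaling MGST3 was at -0.094 and TXNIP at -0.035. With 1 library left out, ranges were -0.76 to 0.068 for PRDX1, -0.12 to 0.52 for GPX1, -0.44 to 0.54 for MGST3, -0.16 to 0.38 for TXNIP, -0.35 to 0.064 for CAT, -0.33 to 0.21 for PRDX6, -0.34 to 0.14 for TXNRD1, -0.13 to 1.09 for GCLM, -0.11 to 0.43 for GSS, -0.64 to 0.052 for HMOX1, -0.32 to 0.23 for MGST1 and -0.19 to 0.10 for the thioredoxin system median. The scalings of the lists were chosen after the data had been seen. The cause was not tested. Count tests were not run, since whole counts could not be recovered, and depth limits could not be measured.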

Other observations

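Metal-binding and iron genes bind, carry or take up metals. Their median log2 fold change was 0.098 over 8 tested genes (-0.030 under median ratio scaling), with 1 at an unadjusted p under 0.05. This was MT4, a metallothionein of stratified epithelium, at 2335 and 2654 units in HS and at 5108 and 3322 units in drug-loaded MNs. Its log2 fold change was 0.73 (limma adjusted p 0.534), and both treated libraries were above both untreated ones. The suprabasal keratinocyte median stood at -0.059, over 3 tested genes that all overlapped between groups. The part of keratinocytes in the MT4 values was not tested. TFRC, the transferrin receptor, stood at 81.0 and 78.0 units in HS and at 66.3 and 66.7 units in drug-loaded MNs, a small difference (log2 fold change -0.25) with little spread within groups.

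Genes that handle oxidised membrane lipids in ferroptosis had a median of 0.079 over 8 tested (-0.059 under median ratio scaling). AIFM2, which protects membranes from lipid peroxides independently of glutathione, stood at 9.69 and 6.69 units in HS and at 14.2 and 13.9 units in drug-loaded MNs, a log2 difference of 0.73 (limma, adjusted p 0.524). GCH1, the first enzyme of tetrahydrobiopterin synthesis, stood at 7.55 and 6.37 units in HS and at 4.61 and 4.21 units in drug-loaded MNs, a log2 difference of -0.55 (limma, adjusted p 0.686). In neither gene did the groups overlap, and neither passed the adjustment over all genes. Of the 8 tested genes, 3 were higher and 1 lower without overlap, beside 26.6% and 11.2% of all tested genes.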
